A study of Mus musculus with 16 samples.

Results

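The 5 signalling genes Nog, Grem1, Bmp4, Jag1 and Jag2, of the BMP and Notch pathways, were followed through 4 histone marks in mouse endosteal mesenchymal stromal cells, the bone-lining stroma of the marrow. They were chosen by symbol, with earlier results of these data known. They are 5 of the 3925 genes measured, all of which the authors had marked UP or DOWN. Chromatin immunoprecipitation and sequencing had been done on C57BL/6J cells of 2 genotypes, Bap1 WT (Bap1fl/fl, no Cre) and Bap1 cKO (Prx1-cre;Bap1fl/fl). Both genotypes carry the floxed Bap1 alleles, and only the cKO carries Prx1-cre, which is active in limb mesenchyme and its descendants. Each of the 4 marks had 2 WT and 2 cKO libraries, 16 in all. The labels give no age or sex of the mice. Whether replicate libraries were made from different mice is not stated, so the p-values below measure only the spread between libraries, which may be technical. For H3K4me3 and H3K27ac the library titles and the antibody entries are crossed: a library with one mark in its title lists the antibody against the other. Titles were followed here, and these marks would trade names if the antibody entries were right.

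BMP ligands such as Bmp4 are secreted and signal through serine/threonine kinase receptors and SMAD proteins to drive osteoblast and cartilage differentiation. Noggin (Nog) and gremlin 1 (Grem1) are secreted proteins that bind BMPs and keep them from their receptors, so Bmp4 is the ligand and Nog and Grem1 are the antagonists. Jagged 1 (Jag1) and jagged 2 (Jag2) are membrane-bound ligands that activate Notch receptors on the neighbouring cell, and in the marrow stromal Notch ligands act on blood-forming cells. Polycomb complexes hold such developmental genes silent with H3K27me3 and with H2AK119ub1, the mark that the deubiquitinase BAP1 removes, whereas H3K4me3 and H3K27ac mark active promoters.

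The promoter stretches next to the annotated starts show how differently the genes are built in CG dinucleotides, the feature of the CpG islands at which Polycomb and H3K4me3 usually lie. The sequences are from RefSeq, build GRCm38.p6, and run 5′ to 3′ on the minus strand, the strand of all 5 genes. Those of Grem1 and Bmp4 run up to the RefSeq start. That of Jag1 stops at the start used by the deposited window, 124 bp before the RefSeq start. The Grem1 stretch is chr2:113758649-113758898, the Bmp4 stretch chr14:46390670-46390919 and the Jag1 stretch chr2:137116645-137116770. Every CG is in capitals.
Grem1: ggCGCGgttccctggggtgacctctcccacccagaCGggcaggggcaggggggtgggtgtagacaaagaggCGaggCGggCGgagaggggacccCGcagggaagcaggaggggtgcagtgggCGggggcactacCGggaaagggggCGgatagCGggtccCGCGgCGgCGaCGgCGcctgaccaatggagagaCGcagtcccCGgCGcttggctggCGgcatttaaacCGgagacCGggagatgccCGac
Bmp4: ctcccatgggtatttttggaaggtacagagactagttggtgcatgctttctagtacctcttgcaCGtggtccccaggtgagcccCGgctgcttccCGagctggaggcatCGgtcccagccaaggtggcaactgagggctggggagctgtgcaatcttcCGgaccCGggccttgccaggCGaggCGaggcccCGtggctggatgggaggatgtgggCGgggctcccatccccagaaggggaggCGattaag
Jag1: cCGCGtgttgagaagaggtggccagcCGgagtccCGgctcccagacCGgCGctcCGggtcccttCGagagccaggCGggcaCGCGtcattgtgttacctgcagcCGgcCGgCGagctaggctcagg
The Grem1 stretch held 24 CG dinucleotides in 250 bases, the Bmp4 stretch 11 in 250 and the Jag1 stretch 14 in 126. Of the 5 genes, 4 matched an entry of 300 bases (250 before and 50 from a RefSeq start), all but Nog. The Jag2 entry lies wholly inside the gene as RefSeq and the deposited window place it, and it was not used. The other entries held 28 CG dinucleotides at Grem1, 12 at Bmp4 and 22 at Jag1, against a median of 7 over 32851 promoter entries. As many as at Grem1 were present in 14.2% of the entries, and as many as at Bmp4 in 39.6%.

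Each gene was measured in a 10 kb window centred on its start, cut into 50 bp bins, and the promoter is the central 4 kb (2 kb to each side). In the file's build, GRCm38, the windows are at chr11:89297333-89307332 for Nog (ENSMUSG00000048616), chr2:113753647-113763646 for Grem1 (ENSMUSG00000074934), chr14:46385670-46395669 for Bmp4 (ENSMUSG00000021835), chr2:137111645-137121644 for Jag1 (ENSMUSG00000027276) and chr12:112924777-112934776 for Jag2 (ENSMUSG00000002799). The window of Bmp4 overlaps that of Gm15222, a long non-coding RNA on the other strand that starts 3150 bp inside Bmp4, and their promoters share 849 bp whose reads cannot be told apart. RefSeq also places Gm46756, a long non-coding RNA, in the Grem1 window and an end of the protein-coding Nudt14 in the Jag2 window. Levels are given as CPM, a library's counts scaled to a common total over autosomal windows, with edgeR's TMM scaling. The authors' deposited table marks Nog, Grem1, Jag1 and Jag2 as UP and Bmp4 as DOWN without stating a contrast, and the marks were not used. All 3925 genes carry such a mark, 1904 of them UP and 2021 DOWN. Shares and percentiles over all promoters therefore describe this set of marked genes and not the whole genome. All promoters have the same length, so levels can be set side by side within a mark.

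The libraries held 429493 to 3371063 reads in these windows, with a median of 95 to 1837 counts per promoter, and a read was counted in 3 neighbouring bins. The H3K27me3 libraries were the shallowest. Of 12 stromal markers 8 were measured, and their summed promoter H3K4me3 was 2145 to 2355 CPM in WT and 820 to 856 CPM in cKO. Of these 8, 7 were lower in cKO H3K4me3, where 31.8% of all promoters were lower. Their median log2 change was -1.85, against 0.04 for all promoters. In H3K27ac 6 were lower, where 29.1% of all promoters were lower, with a median of -1.33 against -0.00493. Of 9 haematopoietic markers only Lyz2, the macrophage lysozyme, was measured, at 10.1 and 12.6 CPM of H3K4me3 in WT and 12.8 and 7.40 CPM in cKO. None of 5 endothelial markers was measured. The part of cell composition in the results below was not tested, and a mark lost from all cells cannot be told apart from a change in the share of cells that carry it. Bap1 itself was not analysed here.

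In cKO cells the promoters of Nog, Grem1 and Jag1 had less H3K27me3 and more H3K4me3 and H3K27ac, that of Bmp4 had less of both Polycomb marks without more of an active mark, and that of Jag2 had more H3K4me3 alone. H3K27me3 was lower at 4 of the 5 promoters by edgeR's quasi-likelihood test (Benjamini-Hochberg adjusted p at or under 0.05 over all promoters). Of all promoters tested in that mark, 15.6% were lower and 12.4% higher. H3K4me3 was higher at 4 of 5, where 40.5% of all promoters were higher and 31.8% lower. H3K27ac was higher at 3 of 5, with 30.9% of all promoters higher and 29.1% lower. H2AK119ub1 was lower at 2 of 5, with 16.4% of all promoters lower and 16.7% higher. Over the 4 kb promoter none of the 5 had more of a Polycomb mark or less of an active mark by this test. Because so many promoters changed in the active marks, the count of 4 in H3K4me3 has to be read against that background. The genes were chosen with earlier results of these data known. The counts therefore describe these genes and are no test of them against the shares.

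**Figure D1:**
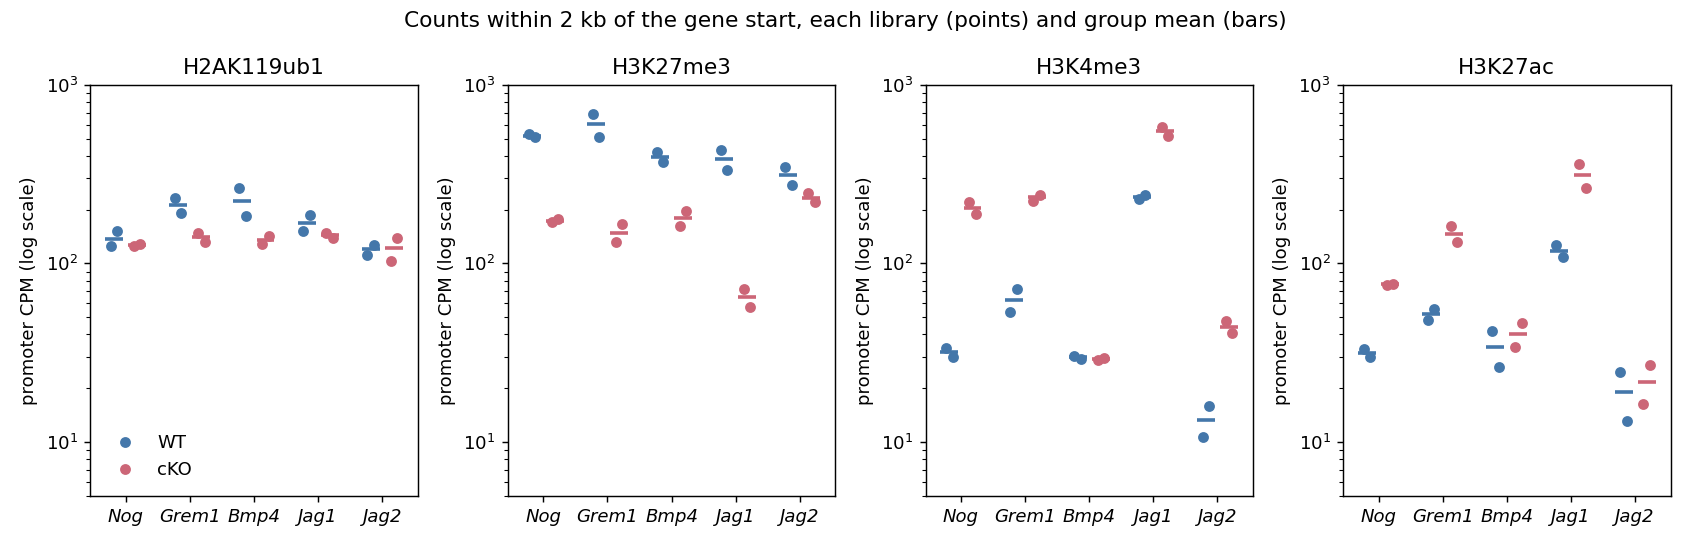
Promoter level (CPM, log axis) of each mark in each of the 2 WT and 2 cKO libraries (points) with the group mean (bars) at the 5 genes. H3K27me3 in cKO lies below WT at Nog, Grem1, Bmp4 and Jag1, and H3K4me3 in cKO lies above WT at Nog, Grem1, Jag1 and Jag2, while Bmp4 stays near 29 CPM of H3K4me3 in every library.

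Nog, an antagonist, had the largest H3K4me3 change of the 5 together with less H3K27me3. Its H3K27me3 was 532 and 509 CPM in WT replicates 1 and 2 and 171 and 176 CPM in the cKO replicates. The cKO libraries were both far below WT, at a log2 change of -1.59 ± 0.26 (SE, n = 2 and 2, edgeR adjusted p = 3.59e-08). Its H3K4me3 was 33.5 and 29.9 CPM in WT and 220 and 189 CPM in cKO. That is a 6.45-fold difference (log2 2.69 ± 0.15, edgeR adjusted p = 1.02e-65), and the 2 groups were well apart. H3K27ac was 33.3 and 30.0 CPM in WT and 75.9 and 77.0 CPM in cKO, 2.42-fold higher (log2 1.28 ± 0.28, edgeR adjusted p = 0.000185). H2AK119ub1 over the promoter was 125 and 151 CPM in WT and 125 and 128 CPM in cKO. These groups overlapped, and the log2 change of -0.13 ± 0.21 did not pass the test (edgeR adjusted p = 0.683).

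Along the 10 kb, Nog in cKO carried H3K4me3 in 2 places, around the start and inside and beyond the short gene. The first maximum, from -500 to 0 bp, averaged 69.6 CPM per 500 bp against 9.74 CPM in WT. Beyond the promoter, 2 to 5 kb downstream of the start, H3K4me3 was 21.3 and 20.9 CPM in WT and 104.9 and 100.8 CPM in cKO. This flank was higher by log2 2.29 ± 0.22 (edgeR adjusted p = 6.37e-08), where 7.81% of all downstream flanks were higher and their median log2 change was -0.49. The loss of H3K27me3 was log2 -1.90 ± 0.34 over the 2 kb upstream of the start and -1.44 ± 0.30 over the 2 kb downstream, a difference that was not tested. H2AK119ub1 was lower in the upstream flank, 2 to 5 kb before the start, at 104 and 116 CPM in WT and 33.7 and 63.4 CPM in cKO (log2 -1.17 ± 0.28, edgeR adjusted p = 0.00158). Of all upstream flanks, 10.7% were lower in that mark.

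Grem1, the other antagonist, showed the same direction in the 4 marks, and all 4 passed the test. Its H3K27me3 was 690 and 514 CPM in WT, the highest WT level of the 5, and 131 and 167 CPM in cKO. The groups were well apart, 4.04-fold lower in cKO (log2 -2.02 ± 0.26, edgeR adjusted p = 1.78e-12). Its H2AK119ub1 was 231 and 193 CPM in WT and 148 and 132 CPM in cKO. Both cKO libraries were below both WT libraries (log2 -0.60 ± 0.20, edgeR adjusted p = 0.0125). The call was lost without WT replicate 1 (log2 -0.46), cKO replicate 1 (-0.68) or cKO replicate 2 (-0.52), in fits that leave 1 library in a group. Its H3K4me3 was 53.6 and 71.9 CPM in WT and 225 and 243 CPM in cKO, 3.72-fold higher (log2 1.89 ± 0.13, edgeR adjusted p = 5.68e-44). Its H3K27ac was 47.9 and 55.7 CPM in WT and 163 and 131 CPM in cKO, 2.83-fold higher (log2 1.502 ± 0.21, edgeR adjusted p = 2.60e-07). In both active marks every cKO library was above every WT library.

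The Grem1 changes lay on both sides of the start. In the 2 kb upstream H3K27me3 was 255 and 173 CPM in WT and 72.8 and 67.8 CPM in cKO (log2 -1.60 ± 0.32, edgeR adjusted p = 0.00013), and in the 2 kb downstream it changed by log2 -2.30 ± 0.31. H3K4me3 upstream was 6.93 and 13.9 CPM in WT and 47.01 and 61.5 CPM in cKO (log2 2.36 ± 0.26, edgeR adjusted p = 8.36e-10), against a change of 1.78 ± 0.14 downstream. H3K27ac was higher downstream (log2 1.87 ± 0.26, edgeR adjusted p = 0.000139) and had a change of 0.82 ± 0.36 upstream that did not pass the test (adjusted p = 0.0651). The differences between the 2 sides were not tested. H3K4me3 in cKO was highest at 0 to 500 bp, at 66.1 CPM, and H3K27ac at 1000 to 1500 bp, at 38.5 CPM per 500 bp. In cKO 87.3% ± 0.992 (SD, n = 2) of the window's H3K4me3 and 70.5% ± 0.256 of its H3K27ac lay in the promoter, against 74.6% ± 4.57 and 44.7% ± 6.13 in WT. The loss of H3K27me3 ran on into the downstream flank, at 296 and 217 CPM in WT and 65.5 and 93.6 CPM in cKO (log2 -1.69 ± 0.30, edgeR adjusted p = 0.00072, where 9.89% of all downstream flanks were lower). In the upstream flank it was 97.4 and 66.0 CPM in WT and 74.6 and 65.1 CPM in cKO, and the groups overlapped (log2 -0.22 ± 0.34, edgeR adjusted p = 0.732). H2AK119ub1 was lower in the 2 kb downstream of the start (log2 -0.87 ± 0.27, edgeR adjusted p = 0.026, with 8.04% of all promoters lower on that side), whereas the 2 kb upstream had a log2 change of -0.33 ± 0.26 (edgeR adjusted p = 0.406).

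Bmp4, the ligand, lost Polycomb marks but its active marks did not pass the test. Its H3K27me3 was 423 and 371 CPM in WT and 163 and 196 CPM in cKO. The cKO libraries were both lower, 2.21-fold (log2 -1.15 ± 0.26, edgeR adjusted p = 0.000118), and without cKO replicate 1 the call was lost (log2 -0.99). Its H2AK119ub1 was 263 and 184 CPM in WT and 128 and 142 CPM in cKO (log2 -0.73 ± 0.20, edgeR adjusted p = 0.00229). The 2 WT libraries were both above cKO but far from each other. The call was lost without WT replicate 1 (log2 -0.44), cKO replicate 1 (-0.65) or cKO replicate 2 (-0.80), again with 1 library left in a group. Its H3K4me3 was 30.4 and 29.0 CPM in WT and 28.8 and 29.7 CPM in cKO (log2 -0.02 ± 0.29, edgeR adjusted p = 0.947). Its H3K27ac was 41.8 and 26.3 CPM in WT and 33.9 and 46.2 CPM in cKO (log2 0.24 ± 0.34, edgeR adjusted p = 0.556). In both active marks the groups overlapped.

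The Bmp4 window was unlike the others in where the marks lay. Its H3K4me3 sat not at the annotated start but well inside the gene, around the start of Gm15222, with 80.4% ± 0.761 (SD, n = 2) of the window's counts in the downstream flank in WT and 84.0% ± 2.81 in cKO. The highest 500 bp were at 3500 to 4000 bp in WT, at 46.5 CPM, and at 2500 to 3000 bp in cKO, at 45.9 CPM. H3K27me3 was highest between them and the start, at 127 CPM from 1500 to 2000 bp in WT. Over the Gm15222 promoter H3K27me3 was 752 and 465 CPM in WT and 249 and 275 CPM in cKO (log2 -1.21 ± 0.25, edgeR adjusted p = 2.13e-05). On the side of that promoter facing the Bmp4 start, H3K4me3 was 77.2 and 77.6 CPM in WT and 113 and 97.5 CPM in cKO (log2 0.44 ± 0.15, edgeR adjusted p = 0.0105). H3K27ac there was 19.4 and 23.9 CPM in WT and 46.8 and 49.97 CPM in cKO (log2 1.15 ± 0.30, edgeR adjusted p = 0.00627). On the downstream side of promoters in general, 38.0% were higher in H3K4me3 and 27.5% in H3K27ac. The active marks were thus higher in cKO on that side, although over the whole Gm15222 promoter they did not pass the test (H3K4me3 log2 0.13 ± 0.10, H3K27ac 0.37 ± 0.23). Within 1 kb of the annotated Bmp4 start, where H3K4me3 was scarce, it only just passed the test as lower in cKO (log2 -1.23 ± 0.56, edgeR adjusted p = 0.0491, with 24.1% of all promoters lower over that width). Within 400 bp the change of -1.38 ± 0.91 did not pass (edgeR adjusted p = 0.219). In the 2 kb upstream the groups overlapped, at 8.05 and 6.49 CPM in WT and 2.69 and 8.84 CPM in cKO.

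The 2 kb upstream of the Bmp4 start, which Gm15222 does not share, gave weaker Polycomb changes. H3K27me3 there was 108 and 72.3 CPM in WT and 46.1 and 63.0 CPM in cKO (log2 -0.72 ± 0.37, edgeR adjusted p = 0.192). H2AK119ub1 was 99.1 and 79.3 CPM in WT and 54.6 and 60.2 CPM in cKO (log2 -0.63 ± 0.28, edgeR adjusted p = 0.104). The cKO libraries were lower in both marks, but neither passed the test on this stretch alone. Farther upstream, at 2 to 5 kb, H3K27me3 was 128 and 149 CPM in WT and 59.5 and 67.8 CPM in cKO (log2 -1.12 ± 0.31, edgeR adjusted p = 0.00718, where 7.61% of all upstream flanks were lower).

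Jag1, the Notch ligand whose promoter had the most H3K4me3 and H3K27ac of the 5 already in WT, had the largest loss of H3K27me3 of the 5. Its H3K27me3 was 431 and 334 CPM in WT and 72.2 and 56.9 CPM in cKO. That is 5.90-fold lower (log2 -2.56 ± 0.29, edgeR adjusted p = 8.41e-17), the 21st lowest change of the 3883 promoters tested, and it took the promoter from the 95.6th percentile of H3K27me3 in WT to the 27.9th in cKO. Its H3K4me3 was 229 and 243 CPM in WT and 583 and 520 CPM in cKO, 2.33-fold higher (log2 1.22 ± 0.08, edgeR adjusted p = 1.63e-46). Its H3K27ac was 127 and 108 CPM in WT and 363 and 266 CPM in cKO, 2.68-fold higher (log2 1.42 ± 0.17, edgeR adjusted p = 1.75e-08). In these 3 marks the groups were well apart. H2AK119ub1 was 152 and 187 CPM in WT and 149 and 138 CPM in cKO. The cKO libraries were just below WT, and the log2 change of -0.24 ± 0.20 did not pass the test (edgeR adjusted p = 0.378).

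Along the Jag1 window the active marks rose where they already lay. H3K4me3 was highest from -500 to 0 bp in both genotypes, at 61.5 CPM per 500 bp in WT and 116 CPM in cKO. H3K27ac was highest from -1000 to -500 bp in both, at 35.2 CPM in WT and 103 CPM in cKO. H3K27me3 was highest in WT at 500 to 1000 bp, at 69.6 CPM, just inside the gene. Its loss was log2 -2.94 ± 0.35 in the 2 kb downstream of the start and -2.16 ± 0.37 in the 2 kb upstream. The flanks also lost it, by log2 -0.87 ± 0.30 upstream and -1.18 ± 0.30 downstream (edgeR adjusted p = 0.0379 and 0.0118).

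Jag2, the other Notch ligand, had more H3K4me3 in cKO and no other change that passed the test over the promoter. Its H3K27me3 was 349 and 274 CPM in WT and 248 and 220 CPM in cKO. The cKO libraries were both lower, but the log2 change of -0.41 ± 0.26 did not pass the test (edgeR adjusted p = 0.245). Without WT replicate 2 it did (log2 -0.58, adjusted p = 0.0407). Its H3K4me3 was the lowest of the 5 in WT, at 10.6 and 15.9 CPM, and was 47.3 and 40.7 CPM in cKO. Both cKO libraries were above WT, 3.29-fold (log2 1.72 ± 0.30, edgeR adjusted p = 4.02e-08), yet the cKO level was still in the 21.8th percentile of promoters. H3K27ac was 24.8 and 13.1 CPM in WT and 16.3 and 27.01 CPM in cKO, and H2AK119ub1 was 112 and 128 CPM in WT and 104 and 139 CPM in cKO. The groups overlapped in both marks, with log2 changes of 0.20 ± 0.41 and 0.02 ± 0.22 (edgeR adjusted p = 0.683 and 0.953).

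The H3K4me3 at Jag2 in cKO was highest at 500 to 1000 bp, at 16.3 CPM, and H3K27me3 in cKO was highest in the same 500 bp, at 42.7 CPM. H2AK119ub1 was lower in the downstream flank, at 102 and 81.8 CPM in WT and 43.9 and 58.8 CPM in cKO (log2 -0.83 ± 0.28, edgeR adjusted p = 0.034). Of all downstream flanks, 10.4% were lower in that mark.

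**Figure D2:**
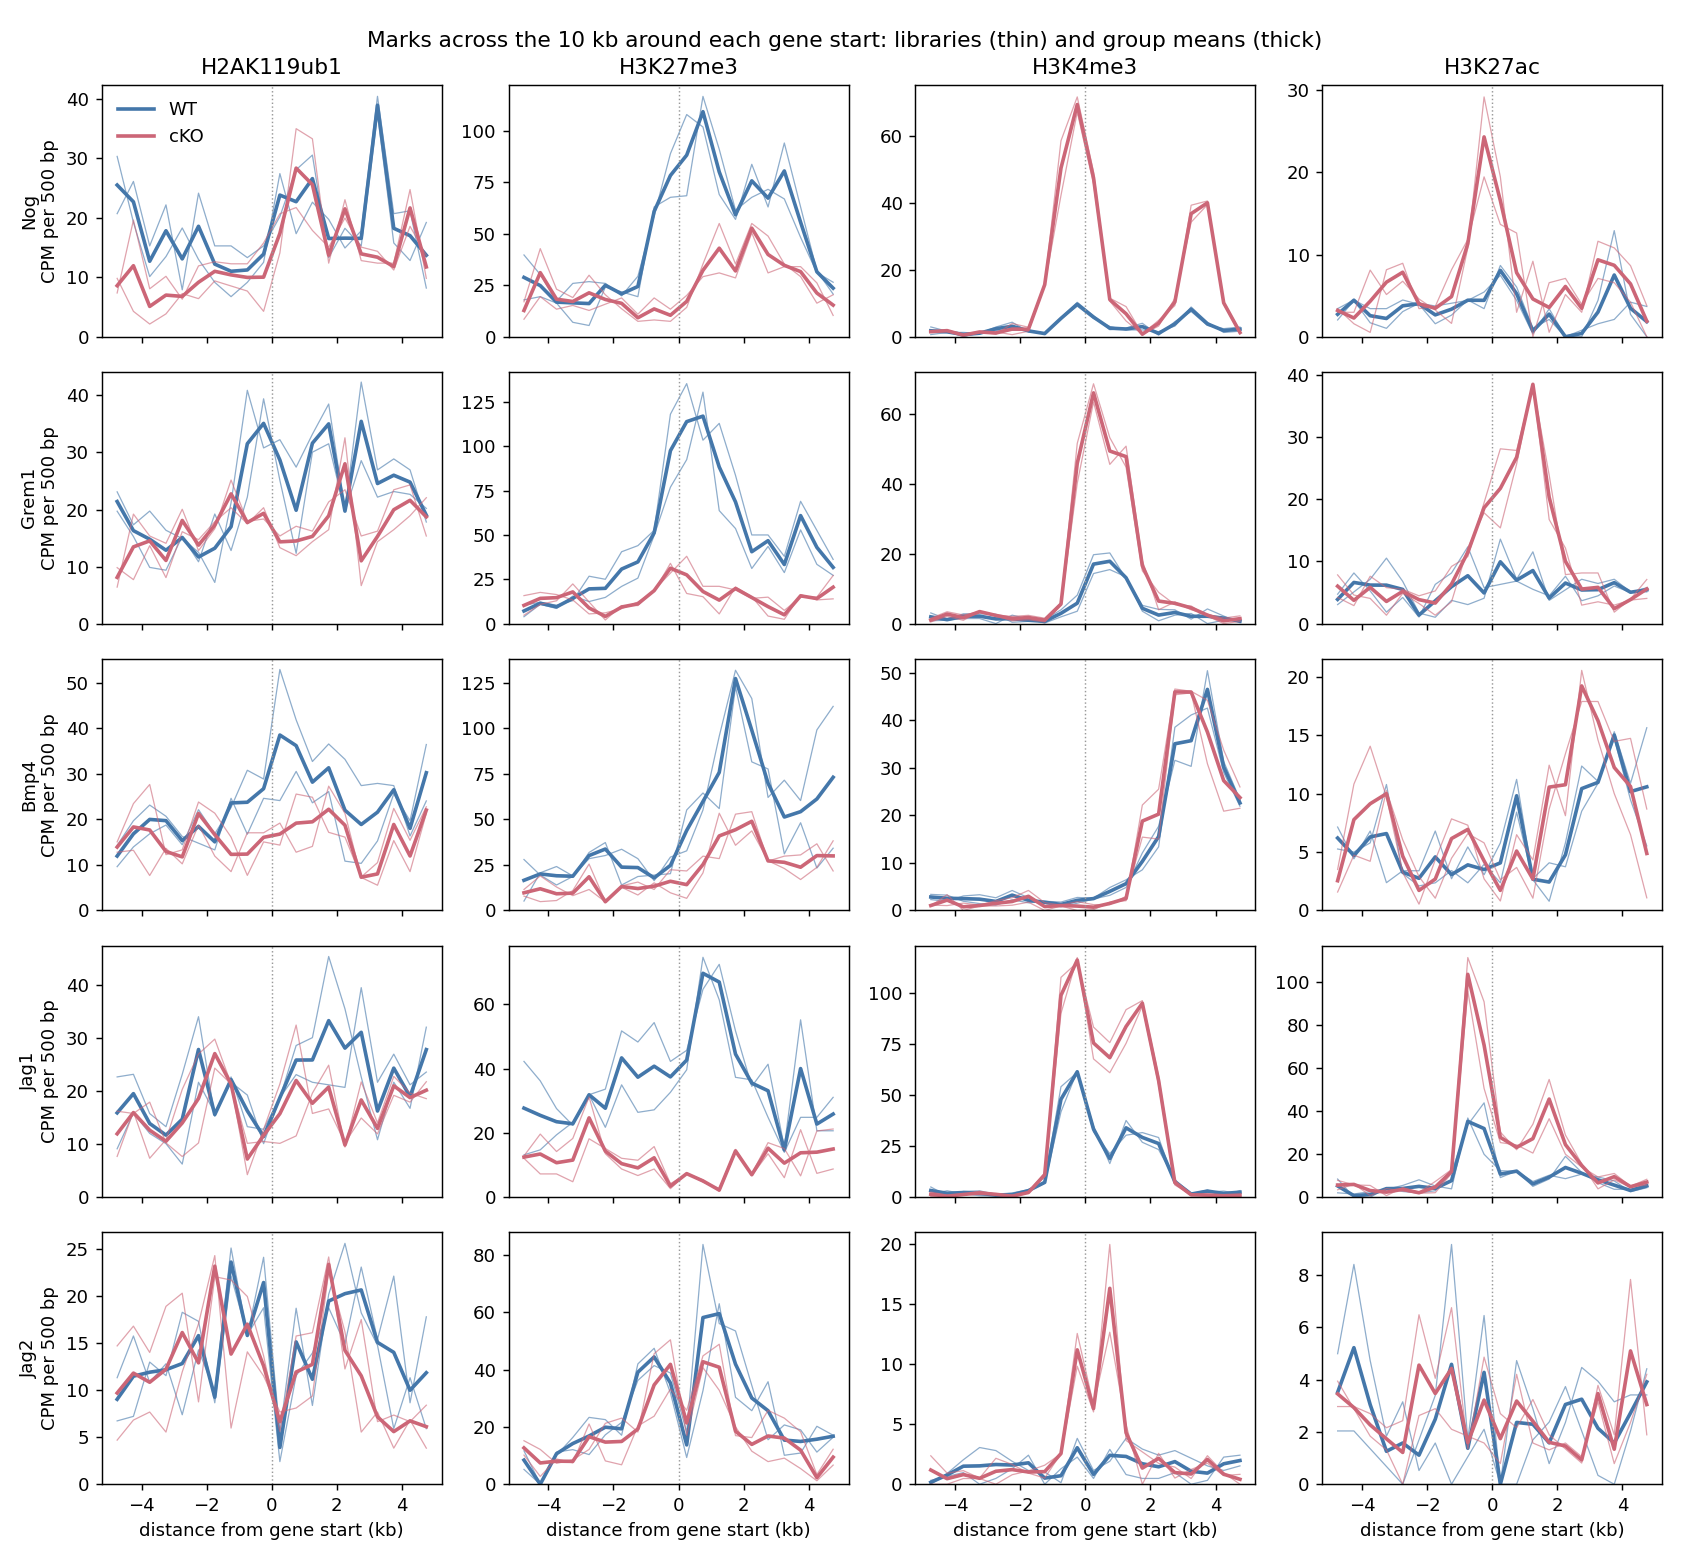
CPM per 500 bp against the distance from the gene start (kb, negative upstream) for 5 genes and 4 marks, with libraries as thin lines and group means as thick lines. H3K4me3 of the cKO rises around the start of Nog, Grem1, Jag1 and Jag2, with another maximum inside the Nog window, and at Bmp4 it lies downstream of the start in both genotypes.

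Summed over the whole 10 kb, H2AK119ub1 was lower at 4 genes, all but Jag2, where 25.2% of all windows were lower. Nog and Jag1, which missed the test at the promoter, passed it here, at 352 and 386 CPM in WT and 253 and 284 CPM in cKO for Nog (log2 -0.46 ± 0.13, edgeR adjusted p = 0.00803). For Jag1 the values were 380 and 458 CPM in WT and 323 and 333 CPM in cKO (log2 -0.35 ± 0.13, edgeR adjusted p = 0.034). The cKO libraries were below WT in both, but no more than 2 of the 4 calls held when a single library was left out. Those of Nog and Jag1 held without WT replicate 1, those of Grem1 and Bmp4 without WT replicate 2, that of Grem1 without cKO replicate 1, and those of Nog and Bmp4 without cKO replicate 2, where Jag2 was called as well (adjusted p = 0.0309). H3K27me3 over 10 kb was lower at the same 4 genes as at the promoter (22.2% of all windows lower), with log2 changes of -1.01 at Nog, -1.66 at Grem1, -1.14 at Bmp4 and -1.65 at Jag1. The Nog call was lost without cKO replicate 1 (adjusted p = 0.071). H3K4me3 was higher at the same 4 genes (38.2% of all windows higher), with the Jag2 call lost without WT replicate 1 (adjusted p = 0.0581). H3K27ac was higher at Nog, Grem1 and Jag1 (32.2% of all windows higher).

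The changes were also set against the surrounding chromosome, since a whole region may move together. Each promoter was compared with the median change of its 20 nearest measured genes in the other Polycomb mark (H3K27me3 for H2AK119ub1, H2AK119ub1 for the rest), which lay within 3.48 to 8.05 Mb. Every promoter call of the 5 genes was kept, with log2 changes in H3K27me3 of -1.57 at Nog, -1.94 at Grem1, -1.33 at Bmp4 and -2.50 at Jag1. The H2AK119ub1 medians taken off were only -0.013 around Nog, -0.071 around Grem1, 0.18 around Bmp4 and -0.062 around Jag1. Offsets this small beside the changes could hardly undo these calls, so their being kept says little about the region. H2AK119ub1 changed by -0.83 ± 0.20 at Grem1 and -0.69 ± 0.20 at Bmp4 on that scale. The genes around Jag2 had a median change of 0.22 in H2AK119ub1, 0.40 in H3K27me3 and 0.33 in H3K4me3. Around Jag1 the median in H3K27me3 was -0.32, and around Nog that in H3K4me3 was -0.38. The calls were not tested against neighbours in the same mark. Relative to its neighbours' H2AK119ub1 median, Jag2 stood at -0.63 ± 0.26 in H3K27me3, which did not pass the test (edgeR adjusted p = 0.0694).

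**Figure D3:**
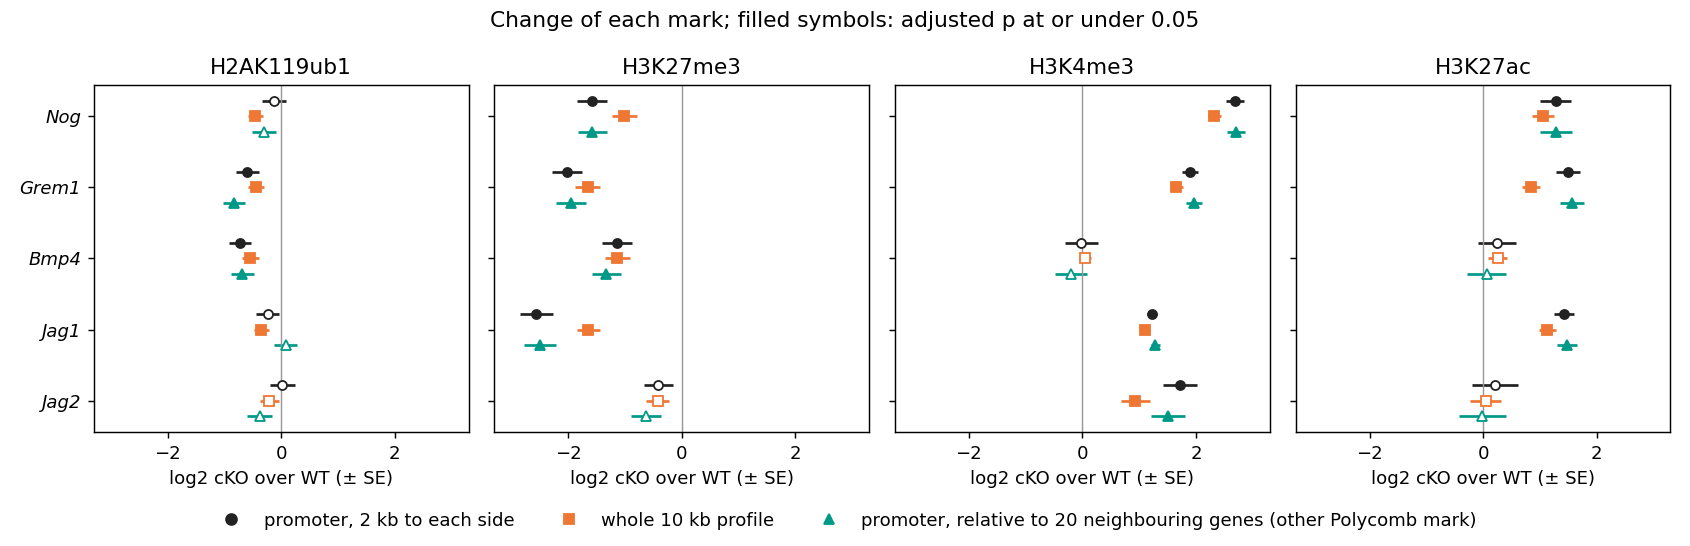
Log2 change of cKO over WT with its standard error for each gene (rows) and mark (panels), over the promoter (circles), over the whole 10 kb (squares) and over the promoter relative to 20 neighbouring genes (triangles), where filled symbols passed the test. The active-mark changes of Nog, Grem1 and Jag1 and the H3K4me3 change of Jag2 lie on the same side by all 3 measures.

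In WT all 5 promoters were rich in H3K27me3, in the 93.5th to 99.0th percentile of the 3925 promoters. The order of the means was Grem1, Nog, Bmp4, Jag1 and Jag2, and only between Nog and Bmp4 did the libraries of neighbours in this order not overlap. In cKO the order was Jag2, Bmp4, Nog, Grem1 and Jag1, and Jag2 lay above and Jag1 below the libraries of the other 3. In H3K4me3 the WT order was Jag1, Grem1, Nog, Bmp4 and Jag2, with Nog and Bmp4 overlapping. Jag1 was in the 63.5th percentile in WT, and the others were in the 7.06th to 28.9th. In cKO H3K4me3 the order was Jag1, Grem1, Nog, Jag2 and Bmp4, with no overlap between neighbours. In H3K27ac the order of the WT means was Jag1, Grem1, Bmp4, Nog and Jag2, and in cKO it was Jag1, Grem1, Nog, Bmp4 and Jag2. H2AK119ub1 spread from 112 to 263 CPM over the WT libraries of the 5 genes and from 104 to 149 CPM over those of the cKO.

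Over all 3875 promoters tested in the 4 marks, 604 were lower in H3K27me3. Of these, 259 (42.9%) were also higher in both H3K4me3 and H3K27ac, the combination of Nog, Grem1 and Jag1. Of the 604, 103 (17.1%) were called in neither active mark. With H2AK119ub1 lower as well, the combination of Bmp4, there were 64 (10.6%). The Jag2 combination, more H3K4me3 with H3K27me3 and H3K27ac not called, was found at 285 promoters (7.35% of all tested). By the root mean square difference in log2 CPM over the 16 libraries, Nog and Grem1 were the closest pair of the 5 at 0.63, and Jag1 and Jag2 the farthest at 2.66. Bmp4 and Jag2, ligands of different pathways, were the next closest pair at 0.76. Promoters outside the 5 were nearer to Nog and to Grem1 than these 2 were to each other (Sntb1 at 0.31 and Spata2l at 0.25). The closeness is therefore not particular to the antagonists.

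Few other genes of these pathways were among those measured. Of 57 listed BMP genes 13 were measured and tested, and of 41 listed Notch genes 7. H3K27me3 was higher at 2 and lower at 2 of the 13 BMP genes (median log2 0.10, against 0.03 for all promoters, of which 12.4% were higher and 15.6% lower). H3K4me3 was higher at 6 and lower at 5 (median 0.15, against 0.04 for all promoters, 40.5% of them higher and 31.8% lower). H3K27ac was higher at 4 and lower at 5, where 30.9% of all promoters were higher and 29.1% lower, with a median of -0.05 against -0.00493, and H2AK119ub1 was lower at 2 and higher at 0 (0 also at an unadjusted p under 0.05 and by DESeq2), with a median of -0.05 against 0.02 and 16.4% of all promoters lower. Among antagonists and modulators, Smoc1, a secreted matrix protein known as a BMP antagonist in Xenopus, had 17.7 and 15.7 CPM of H3K4me3 in WT and 288 and 266 CPM in cKO (log2 4.06 ± 0.16), with H3K27me3 lower by log2 -1.30 ± 0.28 and H3K27ac higher by 2.28 ± 0.24. Bmper, a secreted BMP-binding modulator, went the same way (H3K27me3 log2 -1.15 ± 0.28, H3K4me3 1.54 ± 0.11, H3K27ac 1.39 ± 0.21). Smoc2, a relative of Smoc1, went the other way, with H3K27me3 at 141.4 and 85.5 CPM in WT and 326 and 369 CPM in cKO (log2 1.62 ± 0.27), H3K4me3 lower by log2 -2.50 ± 0.11 and H3K27ac by -1.64 ± 0.23. The BMP co-receptor Eng, which is also one of the stromal markers above, lost H3K4me3 (log2 -3.83 ± 0.19), H3K27ac (-1.58 ± 0.21) and H2AK119ub1 (-0.82 ± 0.22). The ligand Gdf5 lost H2AK119ub1 (log2 -0.70 ± 0.20), and the antagonist Nbl1 had a change of -0.47 ± 0.24 in it that did not pass the test. Nbl1 was higher in H3K4me3 (log2 0.81 ± 0.11). Of the 7 antagonists and modulators tested, 4 were higher and 2 lower in H3K4me3, and 3 higher and 2 lower in H3K27ac. Of the 2 BMP targets tested, 1 was higher and 1 lower in H3K4me3, and 0 higher and 1 lower in H3K27ac. Each change here said to be a loss, lower or higher had an edgeR adjusted p at or under 0.05 over all promoters.

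Of the 7 other Notch genes measured, 2 were higher and 4 lower in H3K4me3, with a median log2 of -0.67, where 40.5% of all promoters were higher and 31.8% lower. In H3K27ac 2 were likewise higher and 4 lower, with a median of -0.76, where 30.9% of all promoters were higher and 29.1% lower. H3K27me3 was higher at 2 and lower at 0 (median 0.42, with 12.4% of all promoters higher and 15.6% lower). H2AK119ub1 was called at 0 of 7 (median -0.13, against 0.02 for all promoters, 16.7% of them higher and 16.4% lower). DESeq2 gave the same counts, and at an unadjusted p under 0.05 edgeR had 1 gene lower in each of these 2 marks. Maml3, a co-activator of the Notch transcription complex, gained H3K27me3 (log2 1.40 ± 0.28) and lost H3K27ac (-1.75 ± 0.18). Dlk2, a non-canonical ligand, gained H3K27me3 (1.11 ± 0.27) and lost H3K4me3 (-0.99 ± 0.12), and Lfng, a fringe glycosyltransferase that modifies Notch receptors, lost H3K4me3 (-0.93 ± 0.09) and H3K27ac (-0.76 ± 0.17). Hes1, the classical Notch target gene, had 347 and 306 CPM of H3K4me3 in WT and 602 and 615 CPM in cKO (log2 0.90 ± 0.08), and its H3K27ac was also higher (1.05 ± 0.15). The second measured target, Hey2, was higher in both active marks as well (log2 0.40 ± 0.11 and 0.62 ± 0.22). The receptor Notch4 lost H3K4me3 (log2 -1.40 ± 0.36). The 2 measured targets were thus higher in the active marks, and the receptor, the co-activator and the glycosyltransferase were lower. Among the other ligands, Dlk2 was lower in both active marks and Dlk1 was called in neither. A link between these genes was not tested, and Hey2 was added after its values were seen. The calls in these sentences are by edgeR's adjusted p at or under 0.05.

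**Figure D4:**
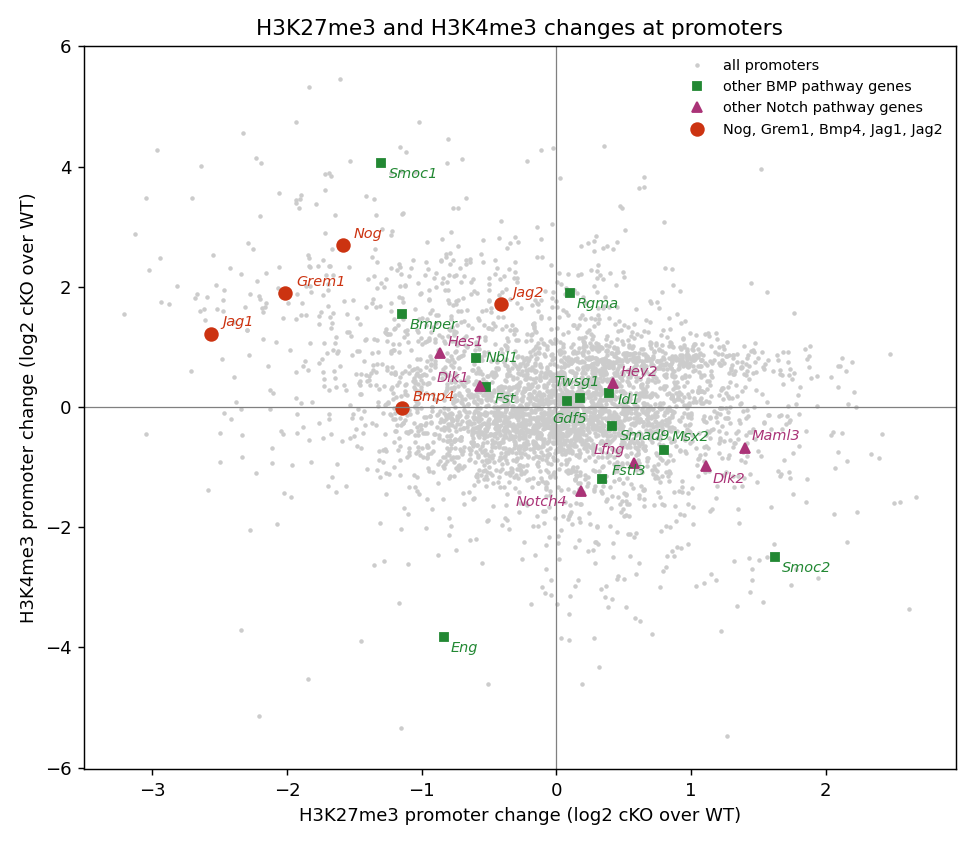
Promoter change in H3K4me3 against that in H3K27me3 (both log2 cKO over WT) for all promoters (grey), the 5 genes (circles) and the other measured BMP (squares) and Notch (triangles) genes. Nog, Grem1 and Jag1 lie at the upper left with Smoc1 and Bmper, Bmp4 lies on the zero line of H3K4me3, and Smoc2, Maml3 and Dlk2 lie at the lower right.

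Among 2796 named promoters, those most like each gene in level over the 16 libraries were Sntb1 (root mean square log2 difference 0.31), Trp53i11 and Slc22a23 for Nog, and Spata2l (0.25), Thpo and Slc22a23 for Grem1. For Bmp4 they were Gfra4 (0.31), Dmtn and Pcsk4, for Jag1 Fads2 (0.40) and Mn1, and for Jag2 Grb10 (0.49), Slc38a3 and Prkg2. The likeness is of levels in the 4 marks over WT and cKO libraries together, and each mark has its own libraries and depth. The promoter of Slc22a23 was near both antagonists, and it was lower in both Polycomb marks and higher in both active marks, as was Grem1. Because the likeness was taken over both genotypes, promoters near in level also have similar changes, and this match follows from the choice.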

How the data were processed

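Per the file headers, the authors deposited whole-number read counts in 785000 bins of 50 bp, 200 for each of 3925 windows of 10 kb, not normalised. They named the build GRCm38 and, per the submitters' processing notes, used bedtools 2.30.0 and SAMtools 1.9 beside Picard 2.25.5, Bowtie2 2.4.5 and cutadapt 1.18, with no settings or order given. Runs of filled bins left by single reads were 3 bins long in 98.3% of cases, so a summed count holds a read about 3 times. Windows were named by the RefSeq GRCm38.p6 gene whose 5′ end lay within 500 bp on the same strand (77.0% named, and 2.80% after a shift of 20 kb).

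Counts were summed over bins 61 to 140 (promoter) or all 200, filtered with a minimum count of 10, and tested in each mark with 2 WT against 2 cKO libraries by edgeR 4.0.16 (R 4.3.3, quasi-likelihood, Benjamini-Hochberg, threshold 0.05), with TMM factors from autosomal windows. DESeq2 1.42.0 was an alternative. The fit was tested on simulated data. Scaling is relative to these windows, so a shift common to all is not detectable. Genes named in the text are the 5 members, the 3 promoters of lowest p in each pathway and mark, and the 3 promoters most alike in level to each member, with Hey2 and Gm15222 added after their values were seen. One promoter that this rule names is not reported here. The members and lists were chosen with earlier results of these data known. The tests of flanks and of the 2 kb on either side of the start were added after the data were seen.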

Additional observations from a re-analysis of the deposited data

How the results depend on the processing

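Over 16 other settings, 10 of the 20 pairs of gene and mark kept their direction and their side of the threshold under every one: H3K27me3, H3K4me3 and H3K27ac at Nog, Grem1 and Jag1, and H3K4me3 at Jag2. The fit with replicate number as a block changed no member's call, with 2 members called in H2AK119ub1, 4 in H3K27me3, 4 in H3K4me3 and 3 in H3K27ac. Deviations of same-numbered libraries correlated at -0.016, -0.039, 0.069 and 0.051 in these marks, so they hardly moved together. Such values cannot decide whether same-numbered libraries share an animal or a day, which the labels do not state. H2AK119ub1 rested most on the choices: 4 members were called over 10 kb, 0 within 400 bp of the start (2 at an unadjusted p under 0.05 by edgeR, with 121 of all promoters called), and 0 to 2 with a library left out. Over 10 kb 1 to 3 were called with a library left out. Without single libraries 3 to 5 members were called in H3K27me3, 4 in H3K4me3 and 3 in H3K27ac. Within 400 bp the Bmp4 H3K27me3 call was also lost (adjusted p = 0.382). Values of Jag2 in H2AK119ub1 that did not pass the test reversed to -0.015 with TMM factors from promoters, -0.22 within 1 kb, -0.21 over 10 kb, -0.60 within 400 bp, -0.0060 with 1 bin in 3, -0.38 with the regional offset, and -0.21 to 0.21 with a library left out (-0.50 to 0.032 over 10 kb). Other uncalled values reversed as well: Nog H2AK119ub1 (-0.26 to 0.017 with a library left out), Jag1 H2AK119ub1 (0.083 with the regional offset), Jag2 H3K27me3 (0.25 within 400 bp), Bmp4 H3K27ac (-0.24 within 1 kb, and -0.027 to 0.64 with a library left out) and Jag2 H3K27ac (-0.011 with the regional offset, -0.17 to 0.75 with a library left out, -0.26 to 0.32 over 10 kb). Bmp4 H3K4me3 was 0.044 over 10 kb, 0.022 with 1 bin in 3, 0.13 with outer flank scaling and -0.079 to 0.0039 with a library left out, and over 10 kb it was -0.061 with library totals and -0.078 to 0.16 with a library left out. The cause of these reversals was not tested. Counts of all promoters called moved from 1287 in H2AK119ub1 to 607 within 1 kb, 561 with the regional offset and 23 to 1090 with a library left out (23 without cKO replicate 1, 241 without cKO replicate 2), and from 1087 in H3K27me3 to 703 within 1 kb, 290 within 400 bp and 626 to 1072 with a library left out (626 without cKO replicate 1, 681 without cKO replicate 2). Outer flank scaling moved the median H3K4me3 change of all promoters from 0.04 to 0.19, and no member's call changed under it. The H3K27me3 libraries were the shallowest, at 429493 reads and up, and the standard error of their log2 change was 0.26 at Jag2, which was not called, as at Nog and Bmp4, which were.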
